A study of Homo sapiens with 6 samples.

Results

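Claudins are tetraspan membrane proteins that form the strands of tight junctions, the contacts that seal the space between neighbouring epithelial cells. This account covers 8 claudin genes, CLDN1, CLDN2, CLDN3, CLDN4, CLDN7, CLDN12, CLDN15 and CLDN23, in DLD-1, a human colorectal cancer cell line, which the sample descriptions give as DLD.1_TR21 for all libraries. They were chosen by name, with earlier results of these data known, from the 27264 gene rows of the count table, and all 8 had reads. Each library is polyadenylated RNA read at its 3' end, so a level in CPM (reads per 1000000 reads in genes) does not scale with transcript length. Levels are set side by side between genes on that ground. Reads in stretches shared with another gene can go uncounted as ambiguous, and CLDN2, CLDN7 and CLDN12 overlap other genes. How far this changes their levels was not measured. Every library is labelled ZEB2 WT, in a series on EMT (epithelial-to-mesenchymal transition) driven by ZEB2, and the cells were grown with DOX (labelled mesenchymal) or without DOX (labelled epithelial), where DOX is the usual short form of doxycycline. Each condition has 3 libraries, 1 from each of the clones WT2, WT5 and WT37, which the series' design text treats as biological replicates. No DOX dose or time is given in the labels, nor how ZEB2 was introduced, and no library from DLD-1 cells without it was used here, so an effect of DOX itself cannot be told apart from one of ZEB2.

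Some claudins tighten the junction and others form pores through it. CLDN1, CLDN3, CLDN4 and CLDN7 are counted among the sealing or barrier-forming members, CLDN2 and CLDN15 form channels for cations, and CLDN12 and CLDN23 are less well characterised. ZEB2 is a zinc finger repressor that binds CACCT and CACCTG elements and is known for silencing epithelial junction genes during EMT. CLDN7 sits along the lateral membrane as well as at the tight junction, where it binds the adhesion protein EPCAM.

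The libraries held 5440093 to 7164426 reads in genes. ZEB2 itself had 20, 9 and 22 reads with DOX in WT2, WT5 and WT37, against 9, 5 and 3 without DOX (blocked log2 fold change 1.38 ± 0.48 SE, edgeR adjusted p = 0.226). The kit reads transcript ends, and the labels do not say which end an introduced ZEB2 transcript carries, so these counts are no full check of the labels. All 8 epithelial markers looked for (EPCAM, CDH1, KRT8, KRT18, KRT19, VIL1, CDX2 and ESRP1) had reads, and their summed level was 4452 to 5663 CPM with DOX and 6656 to 8119 CPM without DOX. In the blocked edgeR fit 3 of the 8 (EPCAM, KRT18 and VIL1) fell and 1 (CDX2) rose, beside 0.835% and 0.725% of all genes. These calls were lost without WT2 and without WT37, where blocked edgeR adjusted p lay between 0.0749 and 0.442. With robust dispersions, a setting explained below, the call of VIL1 was lost (blocked edgeR adjusted p = 0.142). Those of EPCAM, KRT18 and CDX2 held (0.0230, 0.0135 and 0.0464). The summed level of 5 mesenchymal markers (VIM, CDH2, ZEB1, SNAI2 and FN1) overlapped, with 6.26 to 16.3 CPM with DOX and 9.56 to 15.5 CPM without DOX, most of it FN1. ZEB1 had 4, 9 and 11 reads with DOX in WT2, WT5 and WT37, against 1 read in each library without DOX. VIM had 5, 8 and 15 reads with DOX against 1, 3 and 5 without DOX. The groups of each did not overlap, as for 769 of the 11732 tested genes, but the reads were too few for the test. FN1 was lower with DOX in every clone with groups that overlapped, and the groups of CDH2 and SNAI2 overlapped as well. The epithelial sum was lower with DOX, as was the sum of the 8 claudins, and its part in the claudin result was not tested. Of 9 markers of leukocytes, endothelium and fibroblasts, 8 had a row, PECAM1 and COL1A2 were at 0 reads in all libraries, and the summed level was 4.97 to 10.7 CPM with DOX against 4.41 to 9.77 CPM without DOX. In RNA pooled from many cells, fewer cells with a transcript and fewer transcripts per cell cannot be told apart.

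The study concerns a repressor with a known binding element, so start site windows are shown for CLDN7, which had the largest difference, and for the neighbouring barrier claudins CLDN3 and CLDN4. Each runs from 250 bases before to 50 bases after a RefSeq transcript start on GRCh38.p14, is written 5′ to 3′ along the gene's strand, and has every CACCTG in capitals, including those on the other strand, which read CAGGTG here. The CLDN7 window is chr17:7262429-7262728 (minus strand), the CLDN3 window chr7:73770221-73770520 (minus strand) and the CLDN4 window chr7:73830746-73831045 (plus strand).
CLDN7: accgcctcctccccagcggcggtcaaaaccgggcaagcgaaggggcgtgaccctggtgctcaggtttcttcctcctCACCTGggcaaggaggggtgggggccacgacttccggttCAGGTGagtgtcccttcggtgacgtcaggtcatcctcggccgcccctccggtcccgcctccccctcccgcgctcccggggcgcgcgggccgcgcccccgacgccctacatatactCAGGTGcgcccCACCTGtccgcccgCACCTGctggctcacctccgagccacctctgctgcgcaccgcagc
CLDN3: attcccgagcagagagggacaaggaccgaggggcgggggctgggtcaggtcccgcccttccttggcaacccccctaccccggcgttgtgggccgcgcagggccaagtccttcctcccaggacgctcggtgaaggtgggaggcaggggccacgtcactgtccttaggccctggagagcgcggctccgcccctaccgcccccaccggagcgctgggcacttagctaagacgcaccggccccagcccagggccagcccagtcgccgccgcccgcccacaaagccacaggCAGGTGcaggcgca
CLDN4: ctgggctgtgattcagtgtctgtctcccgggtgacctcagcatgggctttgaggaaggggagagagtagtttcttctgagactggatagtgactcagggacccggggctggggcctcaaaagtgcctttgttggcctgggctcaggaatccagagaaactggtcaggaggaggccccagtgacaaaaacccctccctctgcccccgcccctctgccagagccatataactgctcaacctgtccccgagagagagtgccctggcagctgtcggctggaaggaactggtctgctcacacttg
The CLDN7 window held 5 matches, with first bases at -174, -135, -20, -9 and +6 from the start site. Of 35116 RefSeq windows of the same length, 33 (0.0940%) held at least 5 matches and 7231 (20.6%) held at least 1. The CLDN3 window held 1 match, at +37, and the CLDN4 window had 0. The window of the upstream CLDN7 start (chr17:7263164-7263463) had 0 matches, as did all windows used here for CLDN1, CLDN2, CLDN12 and CLDN15; 7 of the 8 genes had a window. With the shorter element CACCT, which every CACCTG also contains, the first CLDN7 window held 7 matches, CLDN12 held 3, CLDN3 and the upstream CLDN7 window 2 each, 1 of the CLDN2 windows 1, and 51.6% of all windows held at least 1. The windows were not matched for GC content, which was 71.7% in the first CLDN7 window, 72% in that of CLDN3 and 59% in that of CLDN4. A match is a run of letters and not a measured binding site. Whether the matches have a part in the CLDN7 difference was not tested.

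Without DOX, CLDN4 was the most abundant claudin, followed by CLDN7 and CLDN2, and with DOX the order was CLDN4, CLDN2 and CLDN7. The other 5 stayed at or below 19.2 CPM in every library. Of these, CLDN3, CLDN12 and CLDN15 had group means between 10.96 and 18.2 CPM with ranges that overlapped, CLDN1 had 4.96 ± 2.35 CPM with DOX and 9.31 ± 5.20 CPM without DOX, and CLDN23 was the lowest with 2.10 ± 1.13 and 2.30 ± 0.0846 CPM (SD, n = 3 each). The 8 genes together reached 389 ± 79.3 CPM with DOX and 684 ± 103 CPM without DOX (SD, n = 3 each). The 2 groups did not overlap, since the highest library with DOX had 471 CPM and the lowest without DOX 623 CPM. CLDN7 made up 64.2% of the difference between these means and CLDN4 33.5%.

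**Figure D1:**
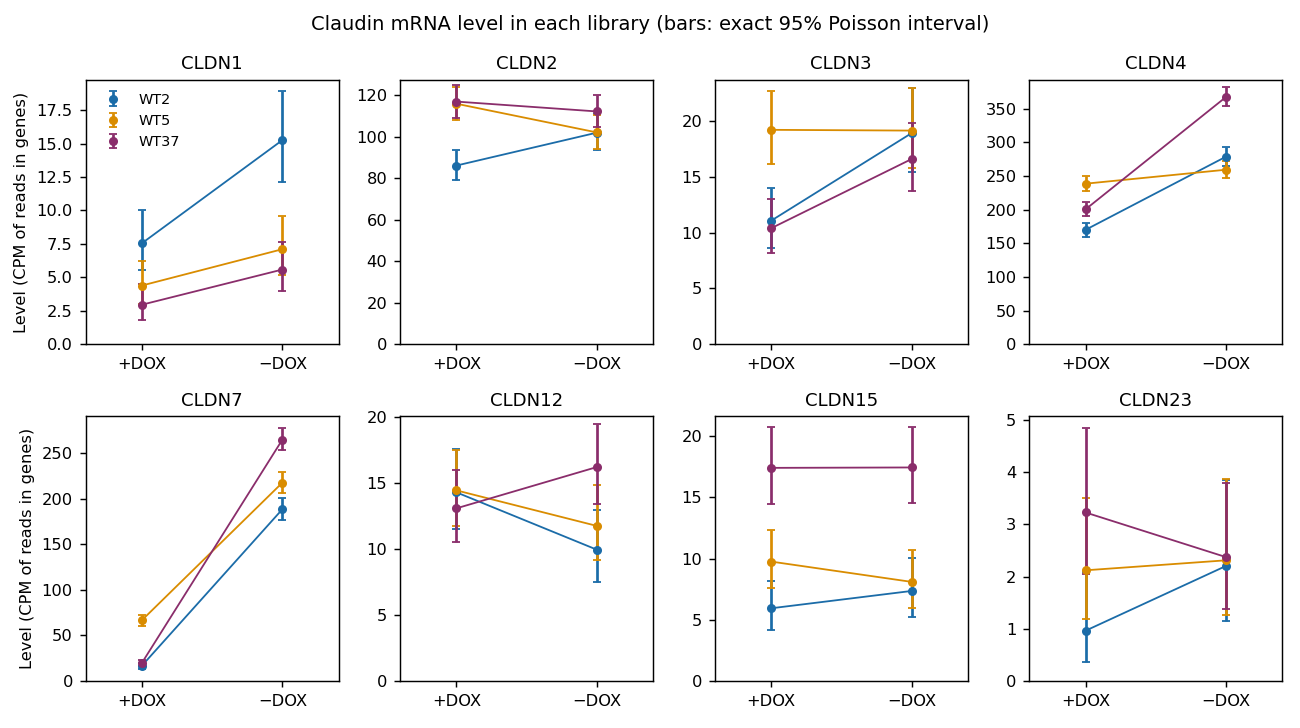
Level of each claudin in CPM of reads in genes, with DOX on the left and without DOX on the right of each panel. Each line joins the 2 libraries of 1 clone and bars are exact 95% Poisson intervals; CLDN7 lies between 16.5 and 66.5 CPM with DOX and between 188 and 265 CPM without DOX.

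CLDN7 (ENSG00000181885, chromosome 17, 7259903 to 7263983, minus strand) showed the largest difference of the family. It had 16.5, 66.5 and 19.5 CPM with DOX in WT2, WT5 and WT37, against 188, 218 and 265 CPM without DOX. All 3 libraries with DOX lay below all 3 without DOX, and WT5 had the highest level of the 3. CLDN7 overlaps ELP5 by 38 bases on the opposite strand and the readthrough gene ENSG00000262302, which has no row used here, on its own strand. Group means were 34.2 ± 28.0 CPM with DOX and 224 ± 38.5 CPM without DOX (SD, n = 3 each), a ratio of means of 6.54. On the log2 scale the fitted change was -2.73 ± 0.45 SE without a clone term, which ranked first among the falls of all 11732 genes tested, and -2.94 ± 0.31 SE with the clone as a block, also first.

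Whether this difference passed the test depended on the model. In edgeR's quasi-likelihood test without a clone term its Benjamini-Hochberg adjusted p was 0.185, and 0 of the 8 claudins and 0% of all genes passed at 0.05, while 709 genes (6.04%) had an unadjusted p under 0.05. DESeq2 without a clone term called 57 genes (0.486%), CLDN7 among them (adjusted p = 0.0107). With the clone as a block, CLDN7 fell, with an adjusted p of 0.00260, as the 1 claudin of 8 called, where 1.56% of all genes passed in either direction, 0.835% as lower and 0.725% as higher. With robust dispersions, an edgeR setting that lets genes of unusual spread keep their own variance, the blocked adjusted p was 0.244 and the call was lost, while 1.3% of all genes passed. An exact two-sided permutation test of the 3 against 3 libraries gave p = 0.1, the smallest value it can give. Without a clone term, leaving out WT5 moved the change to -3.70 and it passed (edgeR adjusted p = 0.00788). It did not pass when WT2 was left out (-2.49, adjusted p = 0.999875) or WT37 (-2.30, adjusted p = 0.278). With the block, the change was -3.70 without WT5, -2.70 without WT2 and -2.52 without WT37, all past the threshold.

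The size of the change differed from clone to clone. CLDN7 was 11.4 times lower with DOX in WT2, 13.6 times lower in WT37 and 3.27 times lower in WT5. As log2 ratios these were -3.51 (95% interval -3.82 to -3.22), -3.76 (-4.02 to -3.51) and -1.71 (-1.87 to -1.56), where the exact intervals cover counting error only. The WT5 interval lay apart from both others, whereas those of WT2 and WT37 overlapped. With 1 library per clone and condition, no test of the difference in response between clones could be made.

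**Figure D2:**
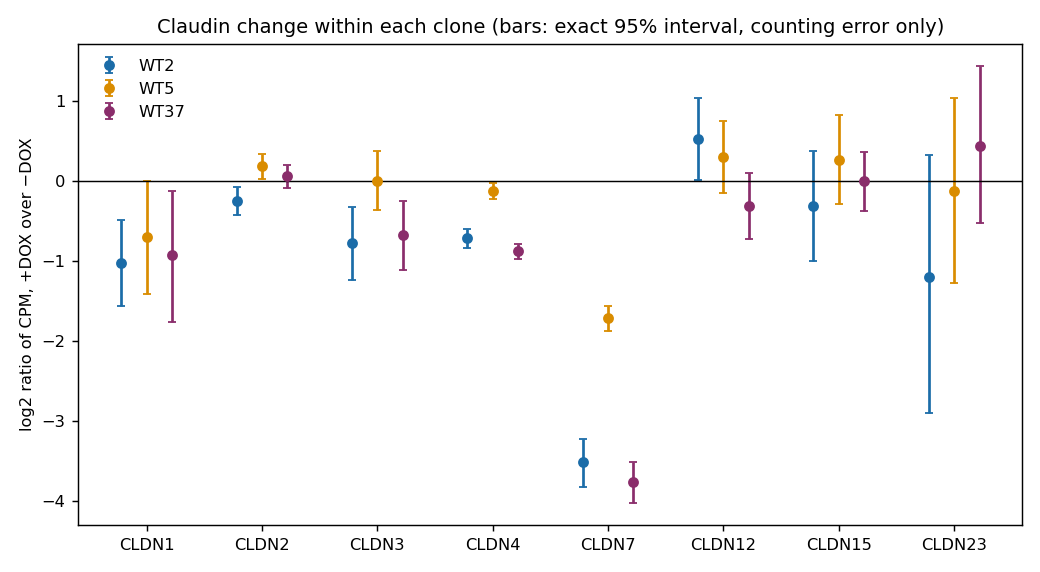
The log2 ratio of CPM with DOX over without DOX for each claudin within each clone, with exact 95% intervals for counting error. For WT2, WT5 and WT37 the CLDN7 ratios are -3.51, -1.71 and -3.76 and the CLDN4 ratios -0.71, -0.12 and -0.88.

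CLDN4 (ENSG00000189143, chromosome 7, 73799542 to 73832693, plus strand), a barrier-forming claudin that with CLDN3 serves as a receptor for the enterotoxin of Clostridium perfringens, had 169.9, 238 and 200.3 CPM with DOX in WT2, WT5 and WT37, against 279, 259 and 367 CPM without DOX. The groups did not overlap, but the WT5 library with DOX was close to its partner. Among the 8 claudins, CLDN4 and CLDN7 were the 2 whose groups were apart in this direction, which 4.56% of all tested genes also showed. The log2 fold change of CLDN4 was -0.61 ± 0.16 SE without a clone term (edgeR adjusted p = 0.464) and -0.61 ± 0.14 SE with the block (adjusted p = 0.0533), so it did not pass. Without WT5 the blocked change was -0.85 and passed (adjusted p = 0.000320), in a fit that called 6.31% of all genes. It did not pass without WT2 (-0.54, adjusted p = 0.296) or without WT37 (-0.43, adjusted p = 0.595). Within clones the log2 ratio was -0.71 in WT2, -0.88 in WT37 and -0.12 in WT5 (interval -0.22 to -0.02).

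CLDN3 (ENSG00000165215, chromosome 7, 73768997 to 73770270, minus strand) lies 29272 bases from CLDN4. It had 11.1, 19.2 and 10.4 CPM with DOX in WT2, WT5 and WT37, against 18.9, 19.2 and 16.6 CPM without DOX. WT2 and WT37 were lower with DOX, and the WT5 pair was level, with a log2 ratio of 0.0051 (interval -0.36 to 0.38). The log2 fold change of CLDN3 was -0.49 ± 0.19 SE with the block (edgeR adjusted p = 0.289). It was -0.78 without WT5 (adjusted p = 0.0283), -0.36 without WT2 (adjusted p = 0.769) and -0.37 without WT37 (adjusted p = 0.973).

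CLDN1 (ENSG00000163347, chromosome 3, 190305701 to 190322475, minus strand), a barrier claudin whose loss opens the skin barrier in mice, had 7.54, 4.38 and 2.95 CPM with DOX in WT2, WT5 and WT37, against 15.3, 7.10 and 5.58 CPM without DOX. Every clone was lower with DOX, yet the groups overlapped because WT2 was high in both conditions. CLDN1, CLDN4 and CLDN7 were the 3 claudins lower in all 3 clones, a pattern that 13.8% of all tested genes showed. The log2 fold change of CLDN1 was -0.94 ± 0.47 SE without a clone term (edgeR adjusted p = 0.881) and -0.92 ± 0.22 SE with the block (adjusted p = 0.0751); leaving out a clone gave blocked changes of -1.03 without WT5 (adjusted p = 0.0333), -0.83 without WT2 (adjusted p = 0.515) and -0.89 without WT37 (adjusted p = 0.442). CLDN1 rests on 21 to 83 reads per library, and its within-clone ratios of -1.02, -0.70 and -0.92 in WT2, WT5 and WT37 had overlapping intervals.

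CLDN2 (ENSG00000165376, chromosome X, 106900164 to 106930861, plus strand), which forms pores for cations and water, had 86.1, 116 and 117 CPM with DOX in WT2, WT5 and WT37, against 102, 102 and 112 CPM without DOX. The groups overlapped, and the clones went in different directions (log2 ratios -0.24, 0.18 and 0.060). The blocked log2 fold change was -0.03 ± 0.11 SE (edgeR adjusted p = 0.931). CLDN2 overlaps MORC4 on the opposite strand, a gene with more reads, so its counts are uncertain if the counting ignored strand.

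CLDN15 (ENSG00000106404, chromosome 7, 101232092 to 101238820, minus strand), a cation channel of the intestinal epithelium, had 5.93, 9.76 and 17.4 CPM with DOX in WT2, WT5 and WT37, against 7.35, 8.09 and 17.4 CPM without DOX. Its level followed the clone in both conditions, and the blocked log2 fold change was -0.04 ± 0.19 SE (edgeR adjusted p = 0.960). CLDN12 (ENSG00000157224, chromosome 7, 90383721 to 90513402, plus strand), which lacks the usual C-terminal PDZ-binding motif of claudins, had 14.3, 14.4 and 13.1 CPM with DOX in WT2, WT5 and WT37, against 9.93, 11.7 and 16.2 CPM without DOX. The 3 libraries with DOX were nearly level and lay inside the range of those without DOX, and the blocked log2 fold change was 0.11 ± 0.20 SE (edgeR adjusted p = 0.867). CLDN12 overlaps GTPBP10 and CDK14 on its own strand. CLDN23 (ENSG00000253958, chromosome 8, 8701938 to 8704106, plus strand) had 6, 15 and 23 reads with DOX and 12, 14 and 17 without DOX in WT2, WT5 and WT37. Its blocked log2 fold change of -0.18 ± 0.40 SE (edgeR adjusted p = 0.892) rests on so few reads that the SE exceeds the change, and no difference was detectable at this depth.

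Over the 8 genes, 7 had a log2 fold change below 0 without a clone term (5712 of all 11732 genes did), with a median of -0.31 (-0.34 with the block), beside a median of 0.0071 (0.0062 with the block) over all genes tested. The claudins, and the partners and regulators counted further on, were chosen with earlier results of these data known. Such counts are therefore no independent evidence. All 8 passed the filter on low counts, and the 4 whose blocked changes were nearest 0 (CLDN2, CLDN15, CLDN12 and CLDN23) changed sign under at least 1 alternative or left-out library.

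The make-up of the claudin reads also differed between the conditions. CLDN7 held 5.29%, 14.1% and 5.09% of the reads of the 8 genes with DOX in WT2, WT5 and WT37, against 30.3%, 34.7% and 33.0% without DOX. Wilson 95% intervals ran from 4.32% to 15.3% over the libraries with DOX and from 28.7% to 36.2% over those without DOX. CLDN2 held 24.6% to 30.5% with DOX and 13.98% to 16.4% without DOX, and CLDN4 50.6% to 54.4% with DOX and 41.3% to 45.8% without DOX. Shares of 1 total are bound to each other: the share of CLDN2 was higher with DOX although its level in CPM overlapped between the groups. CLDN2 had 5.21, 1.74 and 5.99 times the reads of CLDN7 with DOX in WT2, WT5 and WT37, against 0.541, 0.469 and 0.424 times without DOX, so the order of these 2 genes was turned round in every clone. Without CLDN7, the other 7 genes summed to 296, 404 and 364 CPM with DOX in WT2, WT5 and WT37, against 434, 409.7 and 538 CPM without DOX.

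**Figure D3:**
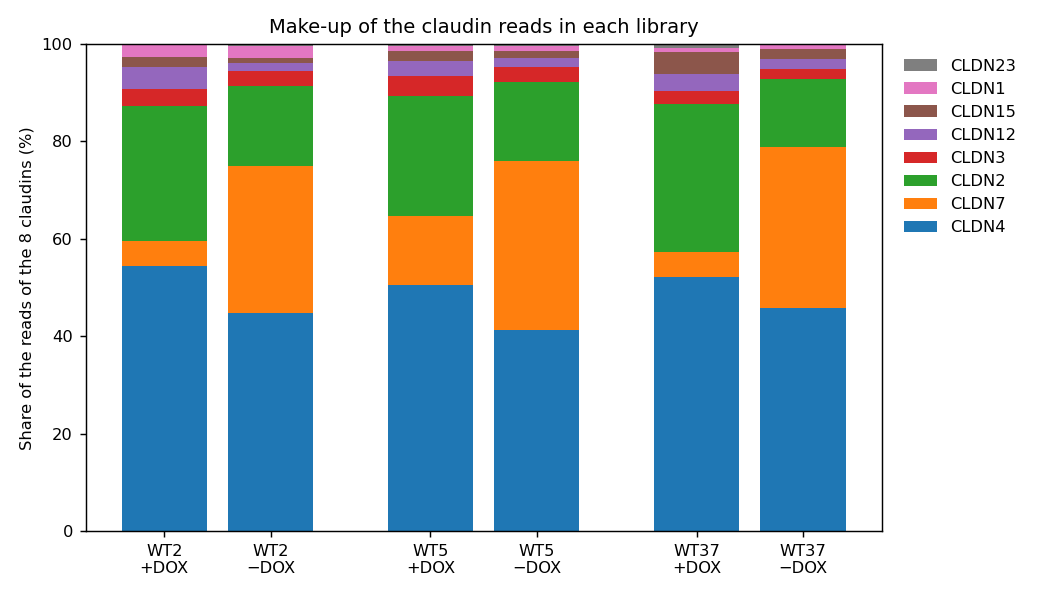
Share of each claudin in the reads of the 8 genes, in %, for the libraries with DOX (left of each pair) and without DOX (right) of the 3 clones. CLDN7 takes 5.09% to 14.1% with DOX and 30.3% to 34.7% without DOX, and CLDN4 is the largest share in all 6 libraries.

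Some claudins also differed between clones, though not under every setting. In an edgeR test of the clone term with DOX as a covariate, CLDN1 (adjusted p = 0.0151) and CLDN15 (adjusted p = 0.0165) passed, 2 of 8, where 6.4% of all genes did. CLDN1 averaged 4.27 CPM in WT37, 5.74 CPM in WT5 and 11.4 CPM in WT2 (2 libraries each). CLDN1 was 1.52 lower on the log2 scale in WT37 than in WT2 (-1.52 ± 0.27 SE, edgeR adjusted p = 0.0102), and WT37 did not differ from WT5 beyond the test (-0.52 ± 0.29 SE, adjusted p = 0.307), nor WT5 from WT2 (-0.999 ± 0.27 SE, adjusted p = 0.134). CLDN15 ran the other way, with 17.4 CPM in WT37, 8.93 CPM in WT5 and 6.64 CPM in WT2. It was higher in WT37 than in WT2 (1.28 ± 0.24 SE, edgeR adjusted p = 0.0131) and than in WT5 (0.88 ± 0.23 SE, adjusted p = 0.0444), while WT5 and WT2 did not differ beyond the test (0.40 ± 0.26 SE, adjusted p = 0.616). Pairwise, 5.55% of all genes passed for WT37 against WT2, 5.8% for WT37 against WT5 and 0.972% for WT5 against WT2.

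These clone calls rest on few libraries. Adjusted p for the clone term was 0.0737 for CLDN1 and 0.0681 for CLDN15 in DESeq2. It was 0.439 for CLDN1 and 0.0704 for CLDN15 without WT2, and 0.148 for CLDN1 and 0.7496 for CLDN15 without WT37, where edgeR compared the remaining pair of clones. The other 6 claudins did not pass, with adjusted p between 0.186 (CLDN7) and 0.888 (CLDN12). The clone test assumes that DOX acts alike in all clones, which was not tested; the CLDN7 ratios lay apart between clones by more than counting error.

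For the 6 claudins that averaged 10 CPM or more, the genes with the most similar pattern over the 6 libraries were found, with similarity measured as the root mean square difference of centred log2 CPM. For CLDN7 the nearest were S100A14 (0.270), a calcium-binding S100 protein of epithelia, SDCBP2 (0.364), a PDZ adaptor, and FXYD3 (0.493), a regulator of the sodium-potassium pump. S100A14 had 54.1, 195.1 and 59.0 CPM with DOX in WT2, WT5 and WT37, against 384, 436 and 659 CPM without DOX. As for CLDN7, WT5 had the highest level with DOX. S100A14, SDCBP2 and FXYD3 fell in the blocked edgeR fit, with log2 fold changes of -2.50 ± 0.33, -2.32 ± 0.40 and -2.003 ± 0.39 SE and adjusted p of 0.00745, 0.0157 and 0.0278. In DESeq2 with the block, adjusted p was 0.0128, 0.000421 and 0.153 in the same order. With robust dispersions in edgeR, adjusted p was 0.369 for S100A14, 0.0427 for SDCBP2 and 0.2203 for FXYD3. The leave-outs below are again those of the blocked edgeR fit. All 3 passed without WT5, and without WT2 or without WT37 S100A14 alone passed. They were chosen for likeness to CLDN7 and so give it no independent support.

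The nearest genes of CLDN4 were CDH3, which encodes P-cadherin (0.0714), the calcium release channel ITPR2 (0.0762) and the fucosyltransferase FUT2 (0.0859). Of these CDH3 passed the blocked edgeR test (-0.68 ± 0.14 SE, adjusted p = 0.0338). Those of CLDN3 were IKBKE, NDUFV2-AS1 and PRRG4 (0.0644 to 0.0756), and those of CLDN2, CLDN12 and CLDN15 began with ZNF335, PIDD1 and LPIN1 (0.0403, 0.0724 and 0.1001). PLEKHG3 and EEF1D followed for CLDN2, UBXN2B and TSKU for CLDN12, and HNMT and CAMKK1 for CLDN15, at up to 0.118. Small differences of this measure are common for genes that vary little, so the values for CLDN7 and CLDN2 are not on an equal footing.

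Of 16 tested genes within 250 kb of CLDN7, 10 had a blocked log2 fold change below 0 and 6 above 0. Their median was -0.08 and their range -0.40 to 0.78. In edgeR with the block 0 of the 16 were called, beside 1.56% of all genes, a share too small to expect a call among 16. ELP5, an Elongator subunit, had 62.8 CPM with DOX and 78.1 CPM without DOX. The highest of the 16 was RNASEK, a membrane protein linked to the proton pump V-ATPase, with 1.60 CPM with DOX and 0.907 CPM without DOX (0.78 ± 0.49 SE, adjusted p = 0.540). Around CLDN3 and CLDN4, METTL27 had 2.31 CPM with DOX and 1.22 CPM without DOX (0.90 ± 0.44 SE, edgeR adjusted p = 0.412). Neighbours of CLDN1, CLDN2, CLDN12, CLDN15 and CLDN23 numbered 1, 4, 3, 8 and 1. Of these, 0 were called with the block, beside the same 1.56% of all genes.

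Beyond the 8 genes, other claudins were scarce. Of 16 further claudin genes looked for, 8 had a row in the table used here, with 0 to 18 reads over the 6 libraries together, highest for CLDN9. CLDN20 had 0 reads, which allows at most 0.0768 CPM over the pooled libraries. The claudin domain gene CLDND1, a distant relative, went against CLDN7 and had 91.7, 76.6 and 117 CPM with DOX in WT2, WT5 and WT37, against 45.6, 64.4 and 36.6 CPM without DOX. CLDND1 rose by 0.94 ± 0.19 SE on the log2 scale in the blocked edgeR fit (adjusted p = 0.0374, and 0.187 with robust dispersions). DESeq2 gave an adjusted p of 0.372 with the block and 0.0133 without it. In blocked edgeR without WT5 the change was 1.30, past the threshold. Without WT2 and without WT37 it did not pass (adjusted p = 0.155 and 0.378). CLDND2 had 3 to 11 reads per library and was not tested.

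Among 24 tight junction partners, 21 were tested, 17 had a log2 fold change below 0 (beside 5712 of the 11732 genes tested) and the median was -0.24 (-0.25 with the block). In the blocked edgeR fit 1 of the 21 fell and 0 rose, where 0.835% of all genes fell and 0.725% rose, and without a clone term 0 passed. The one that fell was MARVELD3, a tetraspan protein of the junction strand, with 24.2, 42.1 and 22.6 CPM with DOX in WT2, WT5 and WT37, against 54.0, 62.3 and 66.0 CPM without DOX (-1.11 ± 0.17 SE, adjusted p = 0.0116; 0.000223 without WT5, 0.0557 without WT2 and 0.105 without WT37). The other 2 with the largest changes did not pass. ILDR1, a tricellular junction protein, had 1.84 ± 0.895 CPM with DOX and 3.88 ± 0.946 CPM without DOX (SD, n = 3 each; edgeR with the block, adjusted p = 0.174). TJP3, a scaffold that binds claudin tails, had 11.6 ± 1.09 CPM with DOX and 19.3 ± 6.85 CPM without DOX (adjusted p = 0.152). The scaffold TJP1 was at -0.07 ± 0.13 SE.

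Of 21 genes known to bind claudins or to regulate them, 15 were tested, 10 of them below 0, with a median of -0.16. In the blocked edgeR fit 2 of the 15 fell (EPCAM and GRHL2) and 1 rose (CDX2), beside 0.835% and 0.725% of all genes. EPCAM had 596, 708 and 371 CPM with DOX in WT2, WT5 and WT37, against 977, 914 and 741 CPM without DOX (-0.73 ± 0.12 SE, adjusted p = 0.0133). GRHL2, an epithelial transcription factor known to activate claudin genes, averaged 29.1 ± 7.71 CPM with DOX and 46.6 ± 6.55 CPM without DOX (SD, n = 3 each), and had an adjusted p of 0.0497 with the block and 0.0591 with robust dispersions. CDX2, an intestinal homeobox factor, had 689, 541 and 855 CPM with DOX against 458, 451 and 601 CPM without DOX, higher in every clone with groups that overlapped. All 3 passed without WT5, and 0 of the 3 passed without WT2 or without WT37, where adjusted p lay between 0.0844 and 0.606.

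**Figure D4:**
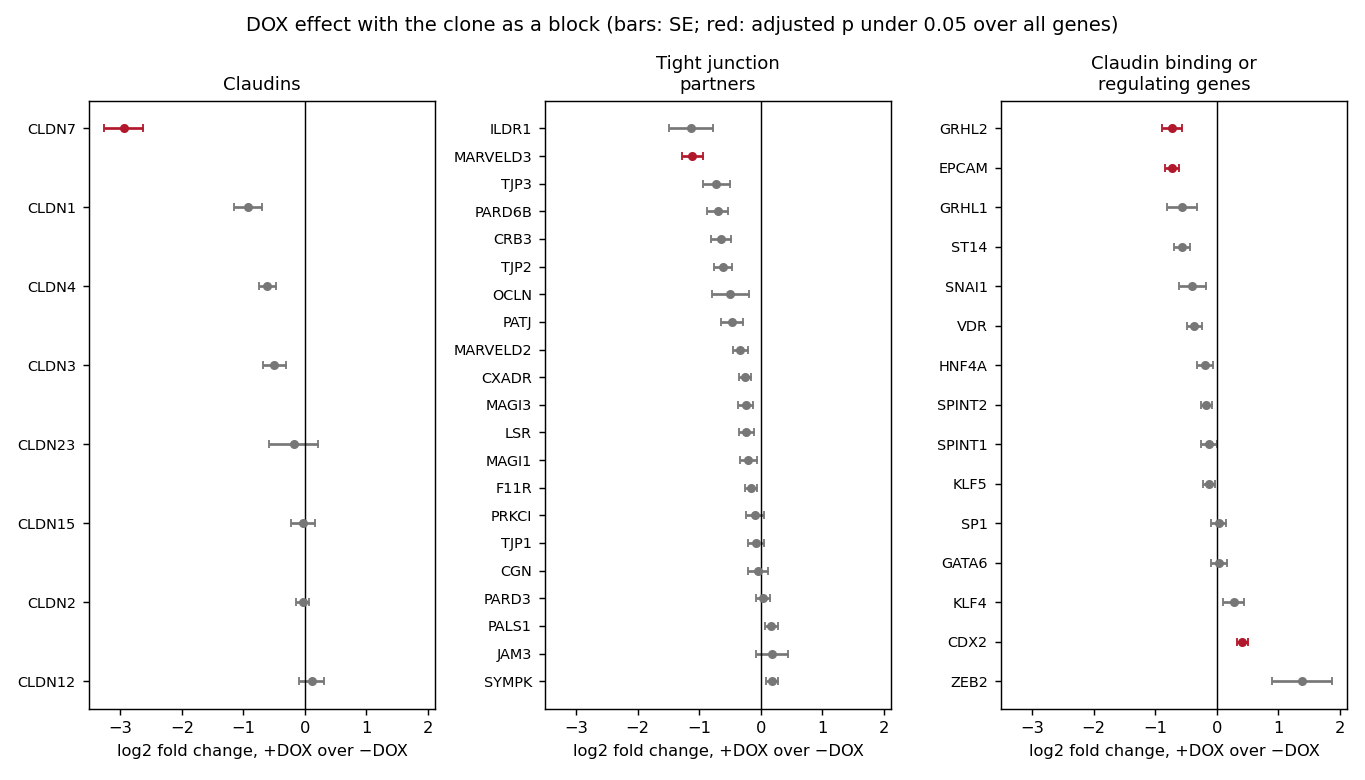
Blocked log2 fold change with DOX over without DOX and its SE for the 8 claudins, 21 tight junction partners and 15 claudin binding or regulating genes. Red points passed edgeR's test over all genes (adjusted p under 0.05): CLDN7 at -2.94, MARVELD3 at -1.11, GRHL2, EPCAM and, above 0, CDX2.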

How the data were processed

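Per the labels, RNA of DLD-1 clones was made into 3' end libraries with the QuantSeq FWD kit. The deposited table holds raw counts of reads per Ensembl gene, as whole numbers without normalization. The submitters' processing notes name DESeq2 and the GRCh38 build, with aligner, counting program, annotation and strand setting not given in the sources used here. A further 4 rows hold reads given to no gene (4.29% to 5.25% unmapped, 11.8% to 16.0% mapped to several places, 8.72% to 11.7% outside features and 6.85% to 7.40% ambiguous), and entered neither the library sizes nor the tests. Symbols were matched to 22056 identifiers, and a further 4858 took their names from GENCODE 29. Positions are from GENCODE 29 on GRCh38.

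Tests used R 4.3.3, edgeR 4.0.16 (quasi-likelihood, TMM, filterByExpr, 11732 genes), limma 3.58.1 and DESeq2 1.42.0, with Benjamini-Hochberg adjustment over all genes and a threshold of 0.05. Only the edgeR DOX fits with and without the block, at default dispersions, were checked on simulated data. That simulation gave all genes the same dispersion and all clones the same DOX effect, so it does not cover clones that respond unequally. The planned model has no clone term. Deviations from the group means were correlated within a clone (r = 0.49, 0.28 and 0.53 across genes for WT2, WT5 and WT37), so the clones pair the samples, and the blocked values are given beside the others. SE was taken as log2 fold change over the root of F. CPM are per 1000000 reads in genes. A prior count of 2 was used in the log2 CPM behind the most alike genes and the correlations within clones. The within-clone log2 ratios were taken from plain CPM without it. Intervals cover counting error only. Named genes are all 8 claudins, other claudins with over 20 reads, listed partners and regulators that were called or had the 3 largest blocked changes, the 3 most alike genes of each claudin averaging 10 CPM or more, and neighbours called or changed by 0.5 or more. MORC4, GTPBP10, CDK14, ELP5, TJP1, CLDN9 and CLDN20 were named for overlap or contrast, after their values were seen. The 8 claudins and the lists were chosen with earlier results of these data known. The list of binding and regulating genes is given without 1 gene that is not reported here.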

Additional observations from a re-analysis of the deposited data

Results flagged for a closer look

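In 5 claudins the within-clone ratios did not all have the same sign. CLDN2 is the 1 of these with clones on both sides of 0 by more than counting error. With 1 library per clone and condition these differences were not tested. Values are log2 ratios of CPM with DOX over without DOX. For CLDN2, WT2 gave -0.24 (95% interval -0.42 to -0.07), WT5 gave 0.18 (0.03 to 0.34) and WT37 gave 0.060 (-0.08 to 0.20). CLDN3 stood at -0.77 in WT2 and -0.68 in WT37, beside 0.0051 in WT5 (-0.36 to 0.38). In CLDN12 the ratios of 0.52 in WT2 (0.02 to 1.04) and 0.30 in WT5 stood against -0.31 in WT37 (-0.72 to 0.10). CLDN15 gave 0.27 in WT5, against -0.31 in WT2 and -0.0028 in WT37. CLDN23, which had the fewest reads, gave 0.44 in WT37, against -1.20 in WT2 and -0.12 in WT5. All 3 intervals of CLDN15 and all 3 of CLDN23 spanned 0.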

How the results depend on the processing

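The number of claudins called with DOX was 0 without the replicate block and 1 (CLDN7) with it. Without the block it was also 0 with limma-voom, robust dispersions, size factors and a stricter filter, 1 in DESeq2 (CLDN7), 2 without a filter on low counts (CLDN4 and CLDN7), and 0 to 1 when a clone or library was left out, where CLDN7 passed without the WT5 library with DOX and without all of WT5. Adding the block gave 2 with size factors (CLDN4 at adjusted p = 0.0493, and CLDN7), 3 without a filter, 1 with the stricter filter, in DESeq2 and in limma-voom, 0 with robust dispersions, and 1 to 4 when a clone was left out, the 4 being CLDN1, CLDN3, CLDN4 and CLDN7 without WT5. Over all genes the count was 183 of 11732 with the block and 0 without it. With the block it was 751 of 11893 (6.31%) without WT5, 35 without WT2, 21 without WT37 and 152 with robust dispersions. Without a filter on low counts it was 245 of 23630 without the block and 562 with it. It lay between 122 and 193 in the other blocked settings. Without the block it was 57 in DESeq2, 4 without WT5 and 31 without the WT5 library with DOX. The number of claudins that differed between clones was 2, and 0 in DESeq2, 0 without the DOX term, and 0 to 2 when a clone was left out. Without a filter it was 3. Over all genes the clone test called 751 of 11732, 441 in DESeq2, 147 without the DOX term and 1801 of 23630 without a filter. It called 426 without WT2, 1808 without WT5 and 129 without WT37. Robust dispersions were added after seeing the data. CLDN1, CLDN3, CLDN4 and CLDN7 stayed below 0 in all 26 fits each, CLDN7 between -3.70 and -2.30, CLDN4 between -0.86 and -0.42, CLDN1 between -1.40 (without the WT2 library with DOX) and -0.36 (without the WT2 library without DOX), and CLDN3 between -0.82 (without the WT5 library with DOX) and -0.26 (without the WT37 library with DOX). Leaving out a clone or library without the block gave log2 fold changes of -0.14 to 0.085 for CLDN2, -0.056 to 0.39 for CLDN12, -0.47 to 0.44 for CLDN15 and -0.55 to 0.15 for CLDN23, which cross 0. With the replicate block, leaving out WT2 turned the sign of CLDN2 (0.085), CLDN12 (-0.052), CLDN15 (0.076) and CLDN23 (0.14), and leaving out WT5 that of CLDN12 (-0.00039). The cause of these moves was not tested. Shares of the claudin reads stayed inside their intervals when all claudins were counted. The other claudins add only 4 to 11 reads per library (0.118% to 0.329% of the total), too few to move a share out of its interval. Depth limits CLDN23 and CLDN1 most.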
